A study of Mus musculus with 12 samples.

Results

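The canonical histone genes of the mouse were described in 3 lists of ChIP-seq peaks from liver. The members are the 67 protein-coding genes of GENCODE mouse release 21 whose symbol begins with Hist1h, Hist2h, Hist3h or Hist4h, out of 21951 protein-coding genes in the annotation. No peak value was used to choose them. They comprise 6 genes for the linker histone H1, 18 for H2A, 18 for H2B, 12 for H3 and 13 for H4. The Hist1 cluster on chromosome 13 holds 54 of them, the Hist2 cluster on chromosome 3 holds 10, Hist3 on chromosome 11 holds 2 and Hist4 on chromosome 6 holds 1.

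The data are maps of where the histone demethylase LSD1 (Kdm1a) and dimethylated lysine 4 of histone H3 (H3K4me2) lie on liver chromatin of C57BL/6 mice. LSD1 was precipitated from wild-type liver. H3K4me2 was precipitated from adult LSD1 fl/fl mice that carried loxP sites in both groups and had received an AAV8 vector driven by the hepatocyte promoter Tbg, coding for GFP (GFP control) or for Cre (LSD1-LKO). Deletion was therefore aimed at hepatocytes and other cells of the whole liver kept LSD1. Each list was made from 2 ChIP libraries. Control libraries, which the labels call input and the methods call IgG, bring the samples to 12. The labels do not name the diet or the animal of each ChIP library. Each deposited list kept peaks called in both of its libraries, so a gene outside a list may have been called in a single library, and sequencing depth is unknown. The lists held 14584 LSD1 peaks, 43891 H3K4me2 peaks in GFP control and 50675 in LSD1-LKO. Presence in a list is 1 value per group and was not tested, whereas fold enrichment, which is given for each library, was tested at genes in both H3K4me2 lists.

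Canonical histone genes are transcribed mainly while DNA is replicated, when new chromatin needs large amounts of histone protein. Their short, mostly intronless genes lie in clusters in which H2A and H2B genes often face away from each other across a shared promoter, and most of their mRNAs end in a stem-loop bound by Slbp in place of a poly(A) tail. LSD1 removes methyl groups from mono- and dimethylated lysine 4 of H3, so the mark measured here sits on the protein that the H3 genes encode. H3K4me2 is a mark of active and poised promoters, and most hepatocytes of adult liver do not divide.

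Stretches before the RefSeq starts of the members with the highest LSD1 ranks differed in the sequence elements known from histone genes. The 150 bases before the RefSeq start (GRCm38, which is mm10) are shown 5′ to 3′ for 4 members of highest LSD1 rank and for a near-identical pair of H4 genes whose lists differed. Capitals mark the elements searched, which were TATAAA on the gene strand and CCAAT, the octamer ATTTGCAT and the H1 box AAACACA on either strand. The windows are chr13:23622559-23622708 (minus strand) for Hist1h1e, chr13:23683960-23684109 (minus) for Hist1h2ac, chr13:23621095-23621244 (minus) for Hist1h2be, chr13:23756787-23756936 (plus) for Hist1h4b, chr13:21811596-21811745 (plus) for Hist1h4m and chr13:21832198-21832347 (minus) for Hist1h4n.
Hist1h1e: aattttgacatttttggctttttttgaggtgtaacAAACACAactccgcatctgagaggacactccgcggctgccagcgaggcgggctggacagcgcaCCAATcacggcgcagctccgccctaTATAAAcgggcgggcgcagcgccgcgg
Hist1h2ac: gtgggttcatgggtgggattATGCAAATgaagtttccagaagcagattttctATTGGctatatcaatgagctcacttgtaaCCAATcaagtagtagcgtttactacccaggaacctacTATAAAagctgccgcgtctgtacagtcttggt
Hist1h2be: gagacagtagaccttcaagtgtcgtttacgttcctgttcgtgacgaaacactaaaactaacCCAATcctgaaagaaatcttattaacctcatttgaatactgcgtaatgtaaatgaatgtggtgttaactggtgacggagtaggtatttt
Hist1h4b: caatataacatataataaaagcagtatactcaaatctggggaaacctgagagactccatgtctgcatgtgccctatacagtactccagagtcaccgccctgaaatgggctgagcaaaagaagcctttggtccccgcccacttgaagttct
Hist1h4m: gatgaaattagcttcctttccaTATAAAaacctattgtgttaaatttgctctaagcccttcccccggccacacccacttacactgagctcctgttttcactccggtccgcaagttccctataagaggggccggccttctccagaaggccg
Hist1h4n: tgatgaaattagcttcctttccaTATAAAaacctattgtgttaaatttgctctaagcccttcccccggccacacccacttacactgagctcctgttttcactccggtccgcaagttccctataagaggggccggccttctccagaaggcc

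Not all of these stretches lay under an LSD1 peak. Those of Hist1h1e and Hist1h4b lay wholly within such peaks, as did 145 bases of that of Hist1h4n. The stretch of Hist1h2ac fell between its 2 LSD1 peaks, 17 bases from the nearer, and that of Hist1h2be lay 294 bases from the nearest.

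The linker histone gene Hist1h1e carried an H1 box, a CCAAT box and a TATAAA element starting at positions -115, -52 and -27 from its RefSeq start. Hist1h2ac carried the octamer at -130, CCAAT at -98 and -69 and TATAAA at -32. Hist1h2be held a CCAAT at -89, and none of the searched elements occurred in the stretch shown for Hist1h4b. The start of Hist1h2be lay far from its start codon, as described below, and its stem-loop lay at chr13:23585531-23585546. Its stretch is thus not the sequence next to the H2B coding region, and its LSD1 rank is that of the peak at Hist1h1e. The stretches of Hist1h4m and Hist1h4n were identical over 149 bases after a shift of 1 base. RefSeq promoters from 250 bases before to 50 after the start were matched for 62 of the 67 members, the others being Hist1h3f, Hist1h2bc, Hist1h3a, Hist2h2be and Hist2h4.

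Over those promoters, TATAAA occurred in 30 of 62 (48.4%, against 8.26% of all 21262 RefSeq protein-coding promoters) and CCAAT in 53 of 62 (85.5% against 38.2%). CCAAT was found in every matched H1, H2A, H2B and H3 promoter and in 3 of 12 matched H4 promoters. The octamer occurred in 13 of 62 promoters (20.97% against 1.66%), of which 7 were H2A and 6 were H2B genes. The H1 box was found in 9 of 62 (14.5% against 6.15%), among them 5 of the 6 H1 genes. At the other end of the genes, the stem-loop core CTTTTCAG stood on the gene strand within 100 bases of a stop codon in 54 of 67 members (80.6%, against 0.717% of all protein-coding genes with a stop codon). The most frequent 16-base stem-loop belonged to 41 genes for H1, H2A, H2B or H3, among them Hist1h1e, and 2 other forms belonged to H4 genes, as in Hist1h4d (8 genes) and Hist1h4b (2 genes). These forms are shown because they separate the H4 mRNAs from those of the other types. Their GRCm38 positions are chr13:23621782-23621797 (minus) for Hist1h1e, chr13:23581950-23581965 (plus) for Hist1h4d and chr13:23757366-23757381 (plus) for Hist1h4b.
most frequent form: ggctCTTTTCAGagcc
Hist1h4d form: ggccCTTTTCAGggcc
Hist1h4b form: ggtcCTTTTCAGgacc

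The capitals mark the core. The remaining 3 matches, at Hist1h2an, Hist1h2bb and Hist1h4i, did not have a fully paired stem, and 13 members held no core in this stretch.

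A promoter window, as used for all counts that follow, was 500 bp on either side of any annotated transcription start site (TSS). A gene was counted when a listed peak overlapped this window by at least 1 bp, with peak positions from the first-listed library of each list.

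LSD1 peaks were listed at the promoters of 29 of 67 histone genes (43.3%), against 23.3% of all protein-coding genes. H3K4me2 peaks were listed at 61 histone genes in GFP control and at 61 in LSD1-LKO (91.0% each), against 58.6% and 58.5% of all genes. Both H3K4me2 lists held 59 of them, each list alone held 2, and 4 had no peak in any list. All 29 genes with LSD1 also carried H3K4me2 in at least 1 list, as did 5045 of all 5106 genes with an LSD1 promoter peak. Among genes with H3K4me2 in either list, LSD1 was listed at 29 of 63 histone genes (46.0%), against 37.1% of all such genes. This difference of 8.90 percentage points depended on the settings. It was 0.187 points for peaks with p-values of at most 1e-05 in both libraries, 0.369 points for the histone genes in whose windows at most 10% of 50-mers are repeated, and 2.50 points with windows of 250 bp on either side. When peak and window had to share at least 50% of the shorter one, the shares were 33.9% and 35.5%, so the difference changed sign, as it did with a q-value limit of 0.05 (-1.60 points).

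**Figure D1:**
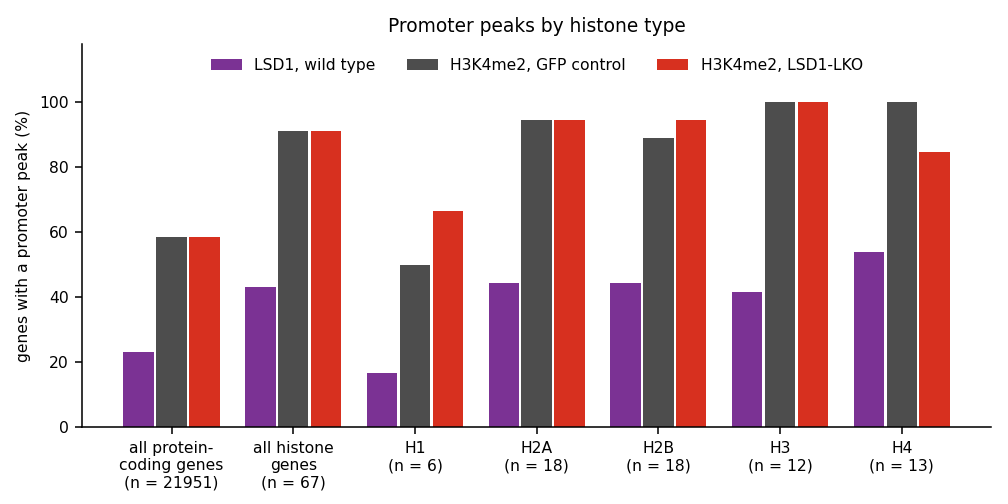
Share of genes with a listed promoter peak (y axis, %) for all protein-coding genes, all histone genes and each histone type (x axis, number of genes in brackets), with bars for LSD1 in wild type and H3K4me2 in GFP control and LSD1-LKO. H3K4me2 bars reach 100% for H3 in both lists, and the LSD1 bar is lowest for H1 (1 of 6 genes).

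Histone genes share sequence with their copies, so the uniqueness of each window was examined. In each window the 50-mers that occur again elsewhere in the genome were counted, because a read of that length from such a stretch has several equal positions. With its default settings, which the methods name, Bowtie2 reports such a read at 1 of its best positions, chosen at random among equal ones. A later filter on mapping quality is not given in the sources used here. The share of repeated 50-mers had a median of 29.3% over the 67 histone windows and exceeded 10% in 56 of them, while its median was 0 over 37 related and proliferation genes. It was 100% at Hist1h2ao, Hist1h2ap, Hist1h2bq and Hist1h2br. Among the 11 histone genes with at most 10% repeated 50-mers, LSD1 was listed at 3 (27.3%) and H3K4me2 at 7 in each list (63.6%). These shares exceeded those of all genes by 4.01 percentage points for LSD1, 5.02 for GFP control and 5.11 for LSD1-LKO. The 11 genes included 3 of the 4 without any peak, namely Hist1h1d and the testis genes Hist1h1t and Hist1h2aa. Among the 11 were also 4 H1 genes, and the starts of Hist1h1d and Hist1h2be lay away from their start codons. This class thus differed from the others in more than repeated sequence. Among the 43 with over 10% and up to 50%, LSD1 was listed at 19 (44.2%) and H3K4me2 at 41 in GFP control and 42 in LSD1-LKO. Among the 13 with over 50%, LSD1 was listed at 7 (53.8%) and H3K4me2 at 13 and 12. The part of repeated sequence in the counts was not tested further.

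**Figure D2:**
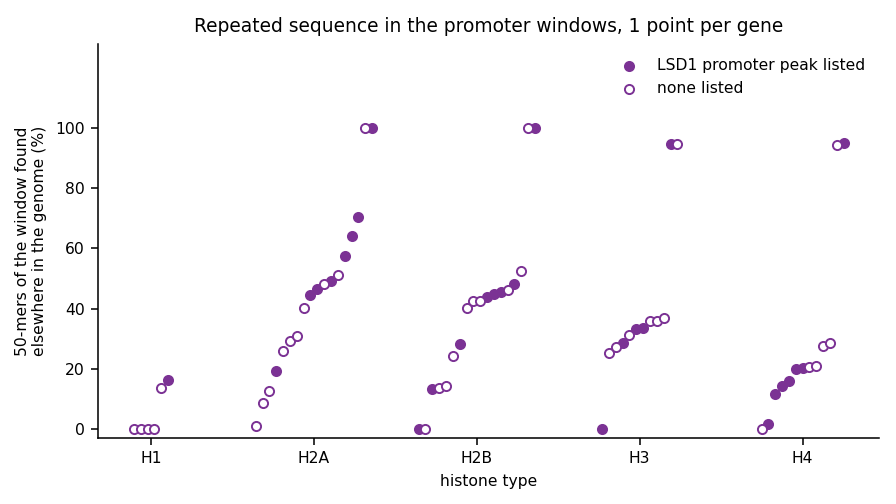
Share of 50-mers of each promoter window that are found elsewhere in the genome (y axis, %) by histone type (x axis), 1 point per gene, filled where an LSD1 promoter peak was listed. H1 genes sit at or below 16.3%, whereas pairs of H2A, H2B, H3 and H4 genes reach 94.2% or more.

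Near-identical neighbours gave examples in which the lists differed. Hist1h4m and Hist1h4n, H4 genes of the Hist1 cluster on opposite strands, shared 94.2% of their 50-mers. Hist1h4n had LSD1 and both H3K4me2 peaks, whereas Hist1h4m had H3K4me2 in GFP control alone, with the nearest LSD1-LKO peak 424 bp beyond its window. Hist2h3c2 and Hist2h3c1, which encode H3, shared 93.2% of their 50-mers, and LSD1 was listed at Hist2h3c2 only. Likewise LSD1 was listed at Hist1h2ap and Hist1h2br and not at their copies Hist1h2ao and Hist1h2bq, which shared 96.8% and 99.8% of their 50-mers with Hist1h2ap and Hist1h2br. Whether such peaks belong to 1 copy of a pair or to both was not tested.

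The 29 genes with LSD1 rested on 21 peaks, of which 10 touched the windows of 2 genes. Fold enrichment is the authors' MACS value, the ChIP signal at the summit relative to the local background of the control library. It ran from 2.00 to 6.24 among first-listed values and from 2.17 to 7.41 among second-listed values. Rank is the percentile of a peak within its list, ordered by −log10 p-value averaged over the libraries, and since the lists differ in length, ranks in GFP control and LSD1-LKO are places in different lists and not a measure of change at a gene. The LSD1 ranks of these genes ran from 32.5 to 96.4 with a median of 74.7, beside a median of 72.6 over all genes with an LSD1 promoter peak. Of the 21 peaks, 4 reached p-values of 1e-05 in both libraries, which left LSD1 at 6 histone genes (8.96%, against 5.47% of all genes). These were Hist1h1e, Hist1h2be, Hist1h4b, Hist1h4d, Hist2h2aa2 and Hist2h3c2.

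The highest-ranking LSD1 peak lay at the H4 gene Hist1h4b (chr13:23756768-23757745, rank 96.4). Its fold enrichments were 6.24 and 4.76 (first-listed library given first), with −log10 p-values of 10.1 and 7.38. The next peak (chr13:23621539-23622769, rank 96.1) covered the promoter of the linker histone gene Hist1h1e, with fold enrichments of 4.07 and 6.41. It extended into the window of Hist1h2be, an H2B gene whose annotated start lay 35122 bp from its start codon and inside the transcribed span of Hist1h1e. The head-to-head genes Hist1h2ac (H2A) and Hist1h2bc (H2B) shared a pair of LSD1 peaks, and the stronger ranked at 95.4 with fold enrichments of 2.81 and 7.41. Hist1h4n followed at 93.3, with 3.34 and 5.39. The libraries thus differed at Hist1h2ac, whose second-listed value was the highest of all LSD1 peaks at histone genes while its first-listed value lay below the median of 3.005.

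Other LSD1 peaks at ranks above 70 lay at Hist2h2aa2 with Hist2h3c2 (85.5), Hist1h4d (83.7), Hist1h2ag with Hist1h2bj (81.4), Hist1h3e (81.2), Hist1h4c (79.5), Hist1h2bb with Hist1h3c (74.7), Hist1h2ap with Hist1h2br (73.0), Hist2h2aa1 (71.7) and Hist1h2ad with Hist1h2bf (70.2). Lower ranks were found at Hist1h3i (68.3), Hist2h2ac with Hist2h2be (61.3), Hist1h4f (50.3), Hist1h2ai with Hist1h2bl (47.0), Hist2h4 (43.4), Hist1h4h (40.6) and Hist1h3f (32.5). The p-value of the first-listed library at Hist1h4f was above 0.01, the threshold named in the methods. Peaks at 415 bp from the TSS of Hist1h2be, 388 bp from that of Hist1h3f and 376 bp from that of Hist1h3c were the last inside the window, and the first outside were 815 bp from Hist1h3d and 844 bp from Hist2h3c1.

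Positions relative to the TSS were compared next, with the 5′-most annotated start of each gene as its TSS. Peaks were still counted at any annotated start, so a gene with several starts can have a peak that misses this base. The shares of covered TSS bases over histone genes and over all genes are therefore not like for like. The TSS base was covered at 12 of 29 histone genes with LSD1 (41.4%), beside 58.3% of all genes with an LSD1 promoter peak. H3K4me2 peaks covered it at 50 of 61 histone genes in GFP control (82.0% beside 64.2%) and at 44 of 61 in LSD1-LKO (72.1% beside 56.1%). Over all 67 genes, GFP control H3K4me2 covered 80.6% of them at 400 bp before the TSS, 59.7% at 100 bp before it and 88.1% at 200 bp after it. The corresponding shares in LSD1-LKO were 76.1%, 49.3% and 86.6%. H3K4me2 thus flanked a dip just before the TSS in both lists, and LSD1 was highest at 100 bp after the TSS (29.9%). All protein-coding genes also showed such a dip, with GFP control shares of 37.3% at 300 bp before the TSS, 35.2% at 100 bp before it and 47.6% at 300 bp after it. Over all genes LSD1 was highest at 50 bp after the TSS (14.1%). The shape is therefore not particular to the histone genes.

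**Figure D3:**
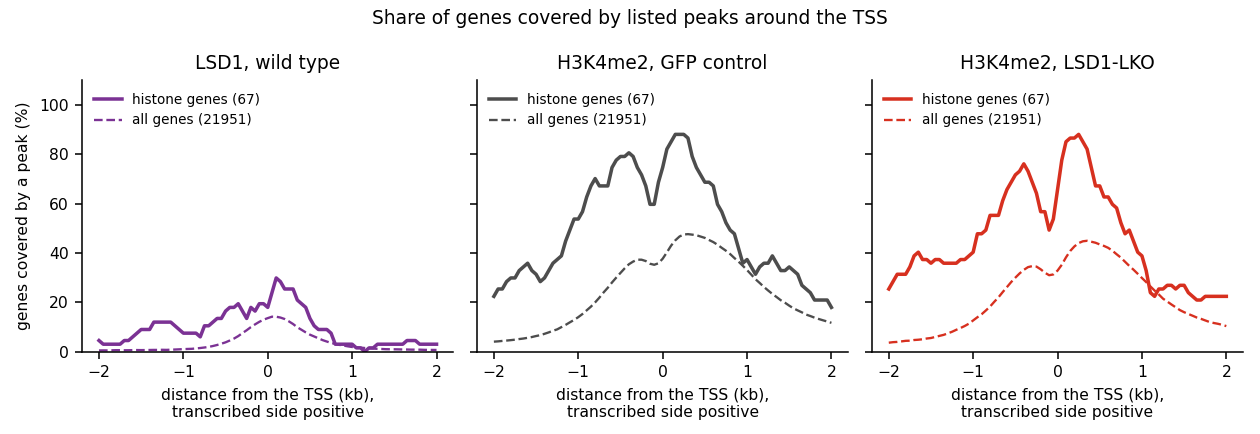
Share of genes covered by a listed peak (y axis, %) at each distance from the TSS (x axis, kb, transcribed side positive) for the 67 histone genes (solid lines) and all 21951 protein-coding genes (dashed lines) in the 3 lists. Both H3K4me2 curves of the histone genes dip 100 to 150 bp before the TSS and peak after it, at 88.1%.

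By histone type, LSD1 was listed at 1 of 6 H1, 8 of 18 H2A, 8 of 18 H2B, 5 of 12 H3 and 7 of 13 H4 genes. H1 genes encode the linker histones that bind DNA between nucleosomes. Hist1h1c had the highest-ranking H3K4me2 of this group in GFP control (99.1, with fold enrichments of 7.83 and 9.76), and its window was covered over 1001 bp in both lists. Hist1h1e was covered over 1001 bp in GFP control and 802 bp in LSD1-LKO, and Hist1h1a over 838 and 549 bp. Hist1h1b had H3K4me2 in LSD1-LKO alone, over 296 bp at rank 33.7, with the nearest GFP control peak 1669 bp from its window. Neither Hist1h1d nor the testis gene Hist1h1t had a peak of any list in its window. The annotated start of Hist1h1d lay 1828 bp before its start codon and its RefSeq start 1770 bp downstream of the annotated one, so its window lay upstream of the RefSeq start. The nearest LSD1 peak lay 1646 bp from the annotated start. Under 11 alternatives in which Hist1h1d was counted, LSD1 was listed at it in 2, GFP control H3K4me2 in 3 and LSD1-LKO H3K4me2 in 2. Its absence from the lists thus depended on the start used.

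H2A and H2B form the dimers of the nucleosome. H3K4me2 was listed in both lists at 17 of 18 H2A and 16 of 18 H2B genes. The H2A exception was the testis gene Hist1h2aa, which had none in either list, as had its neighbour Hist1h2ba, a testis H2B gene. Peaks nearest to this pair lay 12.3 to 15.9 kb from their windows. The highest-ranking GFP control H3K4me2 of any histone gene lay at the shared promoter of Hist1h2ae and Hist1h2bg (99.8), with fold enrichments of 8.82 and 11.2. In LSD1-LKO the same promoter ranked at 92.4, with 4.80 and 7.36. The H2B gene Hist3h2ba had H3K4me2 in LSD1-LKO alone, over 593 bp at rank 80.0 and with fold enrichments of 5.54 and 5.06, and its nearest GFP control peak lay 4203 bp away. Its neighbour Hist3h2a, whose window also held the TSS of Trim17, was covered over 1001 bp in GFP control and 761 bp in LSD1-LKO.

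H3 carries the lysine that is measured here, and all 12 of its genes had H3K4me2 in both lists. The H3K4me2 rank was higher in LSD1-LKO for 9 of them and lower for 3, while it was higher at 50.1% of all genes listed in both. Among the other types it was higher at 1 of 3 H1, 7 of 17 H2A, 8 of 16 H2B and 5 of 11 H4 genes. These ranks are places in different lists. In fold enrichment, both LSD1-LKO libraries lay above both GFP control libraries at 1 of the 12 H3 genes and below both at 1. That is 8.33% each, against 5.93% above and 16.1% below of all genes listed in both. Hist1h3f shared the highest H3 ranks with its H2B neighbour Hist1h2bh, 97.2 in GFP control and 99.5 in LSD1-LKO. The ranks of Hist1h3e lay furthest apart among H3 genes, at 61.1 in the GFP control list and 98.5 in the longer LSD1-LKO list.

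H4 forms the core tetramer with H3, and its 13 genes all had H3K4me2 in GFP control, while 11 had it in LSD1-LKO. The exceptions were Hist1h4m, described above, and Hist2h4. Hist2h4 was covered over 696 bp in GFP control, at rank 84.9 with fold enrichments of 6.79 and 5.37, and the nearest LSD1-LKO peak lay 3979 bp from its window. Its window held 1.7% repeated 50-mers, and an LSD1 peak of rank 43.4 was listed there. Hist4h4, which lies alone on chromosome 6, ranked at 97.7 in GFP control and 97.3 in LSD1-LKO while its covered length was 1001 and 504 bp. Of all genes, 3.37% were listed in GFP control only and 3.28% in LSD1-LKO only, and 2 of 67 histone genes in each direction is close to that background. With p-values of at most 1e-05 required in both libraries, the control list alone held 10 histone genes (14.9%, against 8.73% of all genes) and the LSD1-LKO list alone held 9 (13.4% against 5.55%). With q-values of at most 0.05 these counts were 6 (8.96% against 6.07%) and 3 (4.48% against 3.56%), and when 50% of the shorter of peak and window had to overlap they were 6 (8.96% against 6.42%) and 5 (7.46% against 6.08%).

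**Figure D4:**
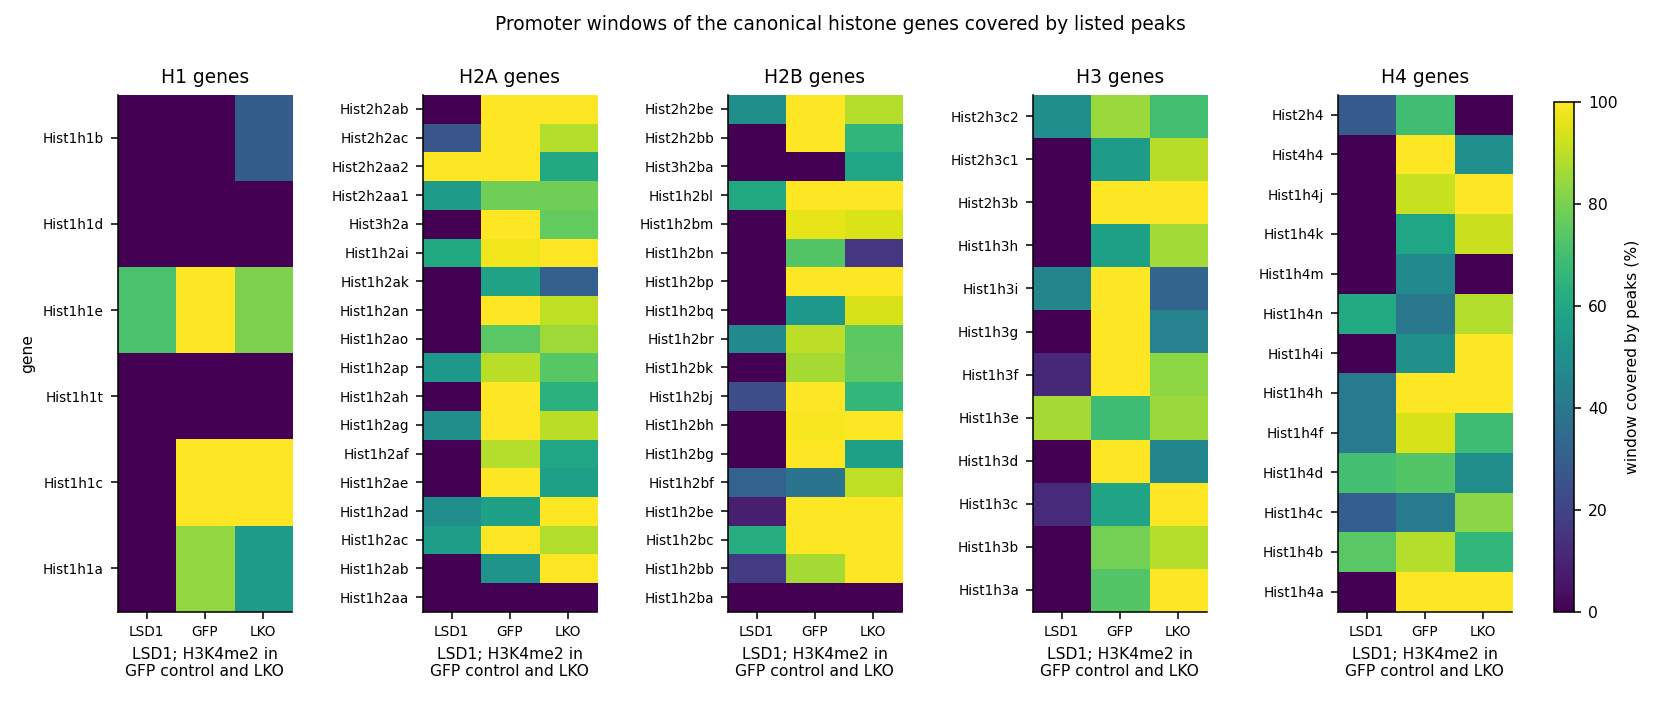
Promoter window of each of the 67 histone genes covered by listed peaks (color, %) in the LSD1 list and the H3K4me2 lists of GFP control and LSD1-LKO (columns), by histone type and in genome order (rows). Hist1h1d, Hist1h1t, Hist1h2aa and Hist1h2ba are empty in all 3 columns, and Hist1h4m, Hist2h4, Hist1h1b and Hist3h2ba are empty in a single H3K4me2 column.

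Peaks were then followed along the clusters. Members less than 100 kb apart were joined into blocks, which gave 4 blocks in Hist1. LSD1 was listed at 6 of 18 genes of the first (chr13:21715763-21837530), at 2 of 5 of the second (chr13:22035164-22043676), at 15 of 29 of the third (chr13:23531050-23764406) and at neither of the 2 testis genes of the fourth (chr13:23933773-23934851). In Hist2 (chr3:96219865-96270132), 6 of 10 genes had LSD1, and in Hist3 and Hist4 none of the 3 genes had it. Within 5 kb of the third Hist1 block, the lists held 16 LSD1, 37 GFP control and 44 LSD1-LKO peaks, of which 12, 24 and 25 lay at promoter windows of histone genes. Peaks covered 19.99% of this stretch in GFP control and 18.4% in LSD1-LKO, beside 1.43% and 1.40% of the whole genome. Of 26 members whose TSS lay within 1 kb of a divergent histone gene, 13 had LSD1, and of the other 41 members 16 had it.

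Covered length was the number of window bases under H3K4me2 peaks. It was lower in LSD1-LKO than in GFP control at 33 of the 63 histone genes with H3K4me2 in either list (52.4%, against 56.6% of all such genes), higher at 21 (33.3% against 37.6%) and equal at 9 (14.3% against 5.87%). The median difference of LSD1-LKO minus GFP control was -18 bp over these 63 genes, beside -60 bp over all such genes, and 0 bp over all 67. A window joined all annotated starts of a gene, so it was longer at genes with several starts. With 1 TSS per gene, these medians over marked genes were -18 bp and -35 bp. A window that is wholly covered in GFP control can only stay equal or fall, and 27 of the 63 histone windows were (42.9%, against 7.49% of all such genes). Median covered length in GFP control was nevertheless 926 bp over the 63 histone genes and 978 bp over all such genes. The shares of wholly covered windows thus depend on window length, for which they and the split that follows were not adjusted. Of the 27 histone windows, 18 were lower and 9 equal in LSD1-LKO. Of the other 36, 15 were lower (41.7%, against 55.6% of all genes not wholly covered) and 21 higher (58.3% against 40.6%). This split uses the GFP control length that also enters the difference, which by itself shifts the remaining windows toward rises. It set apart a larger share of the histone windows, so these shares are not like for like. The remaining windows include Hist1h1b and Hist3h2ba, which had no GFP control peak and could only rise. Covered length was lower at 12 and higher at 4 of the 17 marked H2A genes, of which 9 were wholly covered in GFP control, and the 8 with room in both directions were lower at 4 and higher at 4. In Hist2 it was lower at 7 and higher at 1 of 10 genes, of which 6 were wholly covered in GFP control. For H3 genes it was lower at 5 and higher at 6 of 12, of which 5 were wholly covered. In bulk liver, fewer cells with the mark and less of the mark per cell cannot be told apart.

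The differences furthest below 0 were -696 bp at Hist2h4, -673 bp at Hist1h3i, -577 bp at Hist1h2bn, -559 bp at Hist1h3g and -542 bp at Hist1h3d. Among them LSD1 was listed at Hist2h4 and Hist1h3i. Those furthest above 0 were at Hist3h2ba (593 bp), Hist1h2bf (517 bp), Hist1h4i (498 bp), Hist1h4n (488 bp) and Hist1h2ab (482 bp), of which Hist1h2bf and Hist1h4n had LSD1. Over histone genes with LSD1, covered length was lower in LSD1-LKO at 17 and higher at 8 of 29, and over marked genes without LSD1 it was lower at 16 and higher at 13 of 34. The median difference was -111 bp with LSD1 and 0 bp without, whereas over all marked genes it was -58 bp with LSD1 and -61 bp without. In GFP control the median share of the window covered was 94.0% at histone genes with LSD1 and 90.3% at marked ones without it, and wholly covered windows were not set apart here. Neighbours that share a promoter share bases, as at Hist2h2ac and Hist2h2be, both at -111 bp. Whether the difference goes with LSD1 was not tested.

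Fold enrichment was also compared library by library at the 59 genes with H3K4me2 in both lists. Each list gave its highest-ranking peak at the window, and the ranks above come from the same peaks. At least 2 peaks touched the window at 18 histone genes in GFP control and 22 in LSD1-LKO. The peaks compared could thus differ in position, as at Hist2h3c2 (chr3:96238401-96239124 in GFP control and chr3:96239250-96240255 in LSD1-LKO). Both LSD1-LKO libraries lay above both GFP control libraries at 6 histone genes (10.2%, against 5.93% of all genes listed in both) and below both at 9 (15.3%, against 16.1%), and the libraries overlapped at the other 44. Shared promoters reduced the 6 genes to 4 sets of peaks and the 9 genes to 5. A limma fit on log2 fold enrichment covered all 12129 genes listed in both. Genes with the same 4 library values entered once, while genes that shared only some, such as Hist1h2ai and Hist1h3h, entered separately. No gene passed a limma adjusted p of 0.05 in either direction (0% of all genes). The lowest adjusted p among histone genes was 0.9992. At an unadjusted p of 0.05, 1 of 59 histone genes passed, beside 1.37% of all genes. The median log2 difference of LSD1-LKO minus GFP control was -0.15 over the 59 genes and -0.12 over all genes. With each library centred on its median, 6 of 59 passed the unadjusted limit, all higher (10.2%, against 5.38% of all genes), and none passed after adjustment. Library depth, which is unknown, bears on these values. At Hist1h4b, the gene with the highest LSD1 rank, fold enrichment was 3.34 and 3.79 in GFP control and 8.29 and 7.88 in LSD1-LKO, a log2 difference of 1.18 ± 0.50 (SE, limma, unadjusted p = 0.0179, adjusted p = 0.9992). The fit gave the same SE to each of the 59 genes, so it does not measure the spread at Hist1h4b itself. With libraries centred, the log2 difference at Hist1h4b was 1.33 (limma, unadjusted p = 0.000734, adjusted p = 0.477). The ranks of Hist1h4b were 43.0 and 99.1, the furthest apart of the 59 with the LSD1-LKO rank above. The covered length of Hist1h4b was lower in LSD1-LKO, at 664 against 891 bp, and 19.96% of the 50-mers of its window are repeated. Hist1h3e, which also had LSD1, showed 3.20 and 4.86 in GFP control and 7.02 and 8.59 in LSD1-LKO.

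The other genes above both controls were Hist1h2an with Hist1h2bp and Hist1h2ad with Hist1h2bf, and LSD1 was listed at the second of these pairs. Lower in both LSD1-LKO libraries were Hist1h2ak with Hist1h2bn, Hist1h2ae with Hist1h2bg, Hist1h2ac with Hist1h2bc, Hist1h3a with Hist1h4a, and Hist1h4c. At Hist1h2ak and Hist1h2bn the values were 5.59 and 4.30 in GFP control and 2.95 and 3.13 in LSD1-LKO, and the rank was 65.2 and 27.3. At Hist1h2ac and Hist1h2bc, whose LSD1 peaks are described above, they were 5.97 and 7.58 in GFP control and 5.41 and 4.37 in LSD1-LKO. Library values that did not overlap were thus found on both sides. Of 28 genes with LSD1, 4 lay above and 3 below, from 3 and 2 sets of peaks. Of 31 genes without it, 2 lay above and 6 below, from 1 and 3 sets. Over all genes listed in both, 5.93% lay above and 16.1% below, and these shares were not split by LSD1. Whether the counts go with LSD1 was not tested. Over all 59 genes, rank was higher in LSD1-LKO at 30 and lower at 29.

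**Figure D5:**
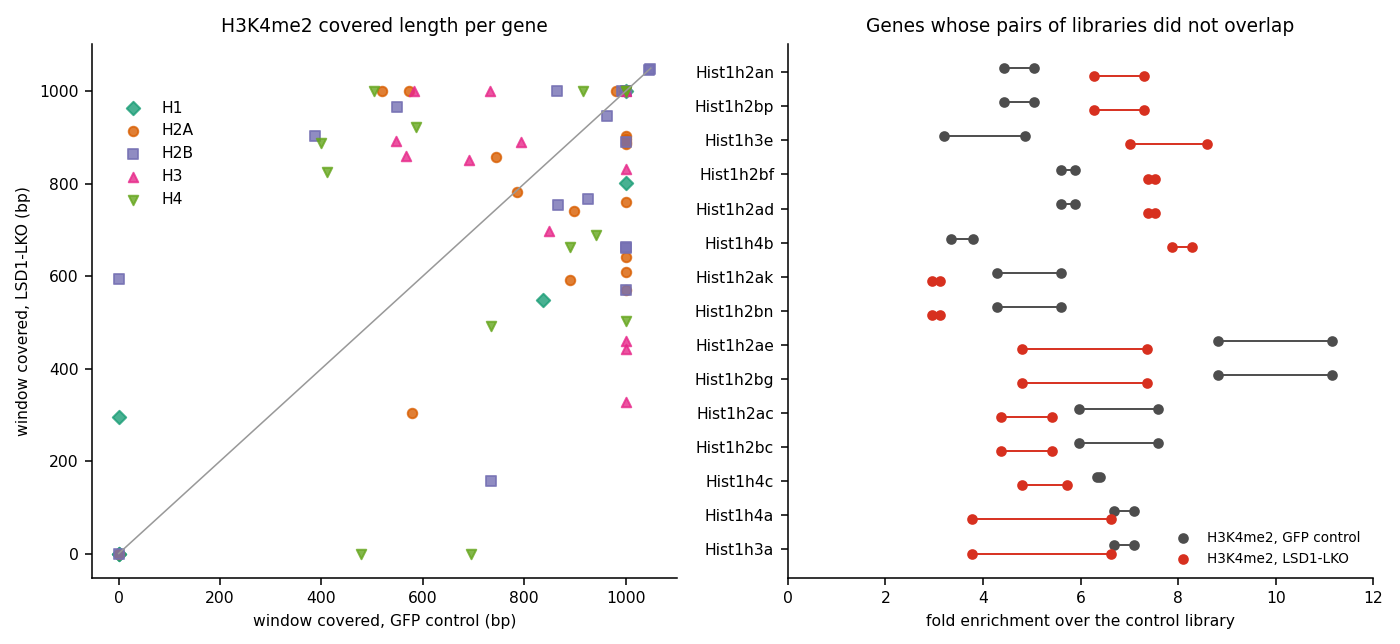
Left, bases of the promoter window covered by H3K4me2 peaks in GFP control (x axis, bp) and LSD1-LKO (y axis, bp), 1 point per histone gene by type, with the line of equal length. Right, fold enrichment (x axis) in both libraries of each group for the 15 genes (rows) whose pairs of libraries did not overlap, 6 higher and 9 lower in LSD1-LKO.

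Ranks of GFP control H3K4me2 were highest at Hist1h2ae and Hist1h2bg (99.8), Hist1h1c (99.1), Hist4h4 (97.7), Hist1h2bh and Hist1h3f (97.2), Hist3h2a (95.7), and Hist2h2ab, Hist2h2ac and Hist2h2be (95.1), which shared a peak. The window of Hist2h2ab also held the TSS of Bola1. LSD1 was listed at 3 of these 10 genes, namely Hist1h3f, Hist2h2ac and Hist2h2be. The median GFP control rank was 81.8 over histone genes with LSD1 and 88.4 over marked ones without it, beside 85.5 and 78.9 over all genes with and without LSD1.

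Genes that work with the canonical histones were described in the same way. For comparison, LSD1 was listed at 23.3% of all genes and at 37.1% of those with H3K4me2 in either list. H3K4me2 was in GFP control only at 3.37% of all genes and in LSD1-LKO only at 3.28%. The counts of these short lists were not tested against those shares. The 11 replication-independent histone genes, which are expressed outside S phase, all had H3K4me2 in both lists, and LSD1 was listed at 3 of them, namely H3f3a, H3f3b and H2afj. Of 14 factors of histone transcription and mRNA 3′ end formation, 12 had H3K4me2 in GFP control and 14 in LSD1-LKO. The additional pair was Cpsf3, the endonuclease that cuts the mRNA, and its scaffold Sympk. LSD1 was listed at Cpsf2, E2f1, Sympk and Hinfp, the last a transcription factor of H4 genes. Neither Npat, the coactivator of histone transcription, nor Slbp had an LSD1 promoter peak. Among 6 histone chaperones, LSD1 was listed at Hira alone, with a rank of 99.96 and fold enrichments of 10.8 and 11.5, and Asf1b had H3K4me2 in GFP control only. Of 6 proliferation genes, LSD1 was listed at Pcna, and Top2a had H3K4me2 in LSD1-LKO only.

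Markers of liver cells gave the context of these values. All 6 hepatocyte markers had H3K4me2 in both lists, and none of 4 leukocyte and 3 stellate markers had it in either. Of 3 endothelial markers, Stab2 was listed in both and Kdr in LSD1-LKO alone, and of 3 cholangiocyte markers Epcam was listed in both. Kdm1a, the deleted gene, had H3K4me2 over 759 bp in LSD1-LKO and none in GFP control, which does not measure its deletion.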

How the data were processed

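Peak lists of 6 ChIP libraries were analysed. The authors mapped reads to mm10 with Bowtie2, called narrow peaks per library with MACS2 against control libraries and joined the libraries of each group with bedtools 2.25.0, per the labels and methods. Fold enrichment is a ratio from the authors' MACS2 output, as are −log10 p and −log10 q in the deposited lists. A list was assigned to its group by its name, and 6 columns of integer scores were not used.

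The members and lists of related genes were chosen with earlier results of these data known. Peak ends lay within the chromosomes of the reference used here (GRCm38.p6). Overlaps were computed in Python 3.11.15 with numpy 2.4.6 and pandas 2.3.3, tested on simulated data and checked with bedtools 2.31.1. Counts are set beside the same counts over all protein-coding genes, with no test, because presence in a joined list is 1 value per group. Fold enrichment of the 2 libraries per H3K4me2 group was tested with limma 3.58.1 (R 4.3.3) on the log2 scale with no pseudocount, a fit added after seeing the data. Whether the libraries came from separate animals is not stated, so its p-values measure the spread between libraries. The genes named are those with LSD1, those with H3K4me2 in 1 list only, the 10 with the highest GFP control rank, the 5 largest rises and falls, all H1, Hist3, Hist4 and testis genes, and genes without peaks. Genes named for near-identical sequence or for library values that do not overlap were chosen after their values were seen. Alternatives changed promoter width, TSS choice, peak threshold, overlap, library, merging of windows and repeated sequence.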

Additional observations from a re-analysis of the deposited data

How the results depend on the processing

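The LSD1 and H3K4me2 shares of the histone genes stayed above those of all protein-coding genes under all 12 alternatives tried, of which RefSeq starts and start codons were chosen after seeing the data, as was the share of LSD1 among genes with H3K4me2. With p at or below 1e-05 in both libraries LSD1 was listed at 6 members, an excess of 3.48 percentage points, and 10 and 9 members were in the GFP control and LSD1-LKO list only (14.9% and 13.4%, against 8.73% and 5.55% of all genes). With q at or below 0.05 LSD1 was again at 6 members, an excess of 2.40 points, 6 members were in the control list only (8.96% against 6.07%), and the difference of LSD1 among marked genes reversed to -1.60 points. It reversed to -1.59 points with an overlap of at least 50%, where 6 and 5 members were in the control and LSD1-LKO list only (8.96% and 7.46%, against 6.42% and 6.08%). With at most 10% repeated 50-mers, 11 members remained, which by itself lowers counts. These members differ from the rest in more than repeated sequence, as described above. LSD1 was at 3, H3K4me2 at 7 in each list, and 1 was in each list only. The excess was 4.01, 5.02 and 5.11 points for LSD1, control and LSD1-LKO. The control list alone held 1 member with RefSeq starts, where Hist2h4 was left out because it had no RefSeq match, and 1 with the intervals of the second-listed library. The median difference in covered length was -68 bp with windows of 1 kb on either side, and the excess of H3K4me2 was 48.6 (control) and 48.9 points (LSD1-LKO) with start codons. For other changes the cause was not tested. The other 96 of 120 values did not reverse but were not all near the main value: counts stayed within 1.5 times it, the LSD1 excess ran from 10.74 to 27.67 points around 20.02, and the excess of LSD1 among marked genes from 0.187 to 12.85 points around 8.90. No histone gene passed the limma test with libraries centred or without any single library (0 in each). Calls for single genes differed in 114 of 2028 cases. No paired analysis was possible because the joined lists carry no replicate numbers. Unknown depth limits every absence from a list.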
